A study of Mus musculus with 4 samples.

Results

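The Fc gamma receptors and scavenger receptors of macrophages were followed in RAW 264.7 cells exposed to Lactobacillus bulgaricus. The 10 genes described are the receptor genes Fcgr1, Fcgr2b, Fcgr3 and Fcgr4, their signalling partner Fcer1g, and the scavenger and pattern receptor genes Msr1, Marco, Scarb1, Mrc1 and Olr1. They were chosen by name, as every probe whose accession belongs to one of these genes, and all 10 had a probe. They took up 12 of 39429 probes, 21 of 43020 spots and 10 of the 20971 genes that could be named. Fcgr2b had 1 probe spotted 10 times, Msr1 and Scarb1 had 2 probes each, and the other 7 genes had 1 probe in 1 spot.

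RAW 264.7 is a macrophage-like line of BALB/c origin, transformed by Abelson leukaemia virus, and all groups were this 1 line grown in serum-containing medium with no antibiotic. Cells were left untreated or were given L. bulgaricus, a lactic acid bacterium of fermented milk, at a multiplicity of infection of 10 for 1, 4 or 6 h. Each group had 1 two-colour array of RNA pooled from 3 cultures, carrying the Cy5 dye, beside a Cy3 reference described as RNA from all the groups. Since a group is 1 array, no test could be made, and precision is limited by the number of arrays. The design asked how transcript levels in these cells moved with time of exposure.

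Fc gamma receptors bind the constant part of immunoglobulin G and let macrophages take up antibody-coated particles. Fcgr1, Fcgr3 and Fcgr4 are activating receptors that signal through the FcR gamma chain, encoded by Fcer1g, whose phosphorylated tyrosine motif recruits the kinase Syk; Fcgr2b carries an inhibitory motif that recruits the phosphatase encoded by Inpp5d. Scavenger receptors bind polyanionic ligands such as modified lipoproteins and bacterial surface polymers without antibody, and Mrc1 binds mannose-rich glycans.

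Measured values are given in 3 forms. Cy5 and Cy3 signals are the scanner's processed brightness of 1 probe, not comparable between probes and scaled within each array only; the 75th percentile of Cy5 was 553, 599, 544 and 525 in untreated cells and after 1, 4 and 6 h. The log2 ratio of Cy5 over Cy3 was computed after background correction and loess normalization within each array. A log2 difference is the ratio on one array minus that on another, and a gene was called higher or lower from a size of 1 upwards, if its probe stood well above background in Cy5 and Cy3 on the pair of arrays compared (here called measured). Replicate spots of other probes gave an SD of 0.13 for a single-spot difference from the untreated array at each time, a measure of spot error that holds nothing of how cultures vary.

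All 11 macrophage markers with a probe, among 12 listed, were well above background in Cy5 on every array, with summed signals of 197313 to 226700. Fcer1g, itself a gene described here, was among them and made up 71592 of the untreated sum of 205886. Such sums add probes of unlike brightness and serve only to compare arrays. Of the 6 mast cell and basophil markers, 1 or 2 were above background per array, and Fcer1a and Ms4a2, which share the gamma chain in those cells, were on no array in that channel. Between 9 and 10 of 10 intestinal epithelial markers were above background as well, with summed Cy5 signals of 3456, 7605, 5116 and 3703 in untreated cells and after 1, 4 and 6 h, as were 7 of 8 smooth muscle and stromal markers (1657, 2819, 5184 and 4121). Of 7 neutrophil markers 2 to 4 were, and of 6 B cell markers 1 or 2. The numbers were 1 or 2 of 5 T and NK cell markers and 2 of 5 endothelial markers. Some intestinal markers were brighter in the Cy3 reference than in Cy5 on every array. Fabp2 read 4294 to 4637 against 698 to 1153, and Vil1 850 to 1435 against 259 to 412. Fabp1 went the other way on the untreated array (175 in Cy3, 235 in Cy5), as did Reg3b and Reg3g at 1 h. The Reg3b ratio stood 4.18 above untreated at 1 h. Whether the reference held RNA beyond that of the groups was not tested, nor was the part of these other transcripts in the receptor values. Cy5 was well above background at 49.5% to 51.8% of spots and no spot was saturated. The 4 arrays lay on 1 slide in the order of the times, and an effect of position cannot be told apart from one of time.

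No measured receptor transcript was past the rule of size at any time, and 4 or 5 of the 10 genes had no measured difference. At 1 h, 6 of the 10 genes were measured and 0 were past the rule, where 0.376% of the 10369 genes measured on both arrays were. At 4 h again 6 were measured and 0 were past it, against 0.455% of 10339 genes. At 6 h 5 were measured and 0 were past it, against 0.921% of 10311 genes. With shares this low, 0 of 5 or 6 members is near the background. A rule of 1.5-fold also took in 0 members at each time, while 1.76%, 2.75% and 5.41% of all genes passed it. The median log2 difference of the measured members was 0.04, 0.07 and -0.09 at 1, 4 and 6 h, beside 0.06, 0.00 and -0.01 for all measured genes. From 1 to 4 h 0 of 6 members passed the rule (0.418% of all genes) or 1.5-fold (2.13%), and from 4 to 6 h 0 of 5 passed either (0.333% and 1.96%).

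**Figure D1:**
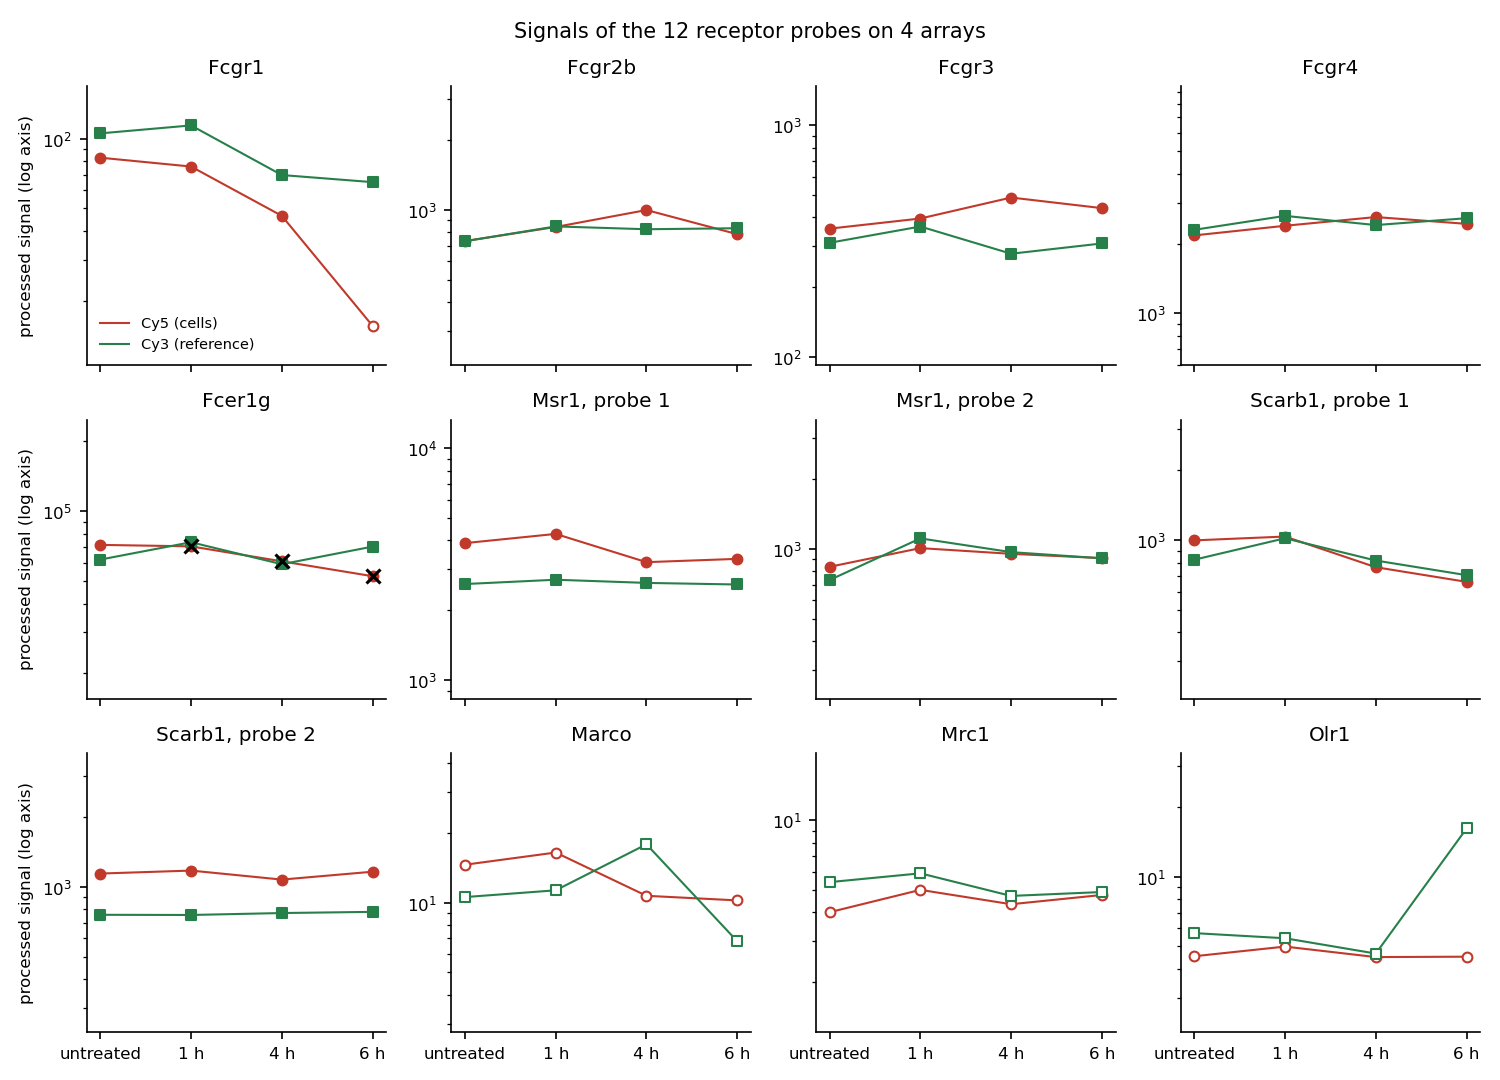
Processed signal (log axis, arbitrary brightness units) of each probe of the 10 receptor genes in untreated cells and after 1, 4 and 6 h, in Cy5 (cells) and Cy3 (common reference), with 1 panel per probe and 1 array per group. Marco, Mrc1 and Olr1 sit at the level of background on all 4 arrays, and the Cy5 signal of Fcgr1 is lowest at 6 h (15.6 against 82.7 untreated).

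Fcgr2b, Fcgr4, Fcgr3 and Fcer1g lie on chromosome 1 in that order, with 0 protein-coding genes between Fcgr2b and Fcgr4, 0 between Fcgr4 and Fcgr3, and 7 between Fcgr3 and Fcer1g; Fcgr1 is on chromosome 3. The 3 neighbouring receptor genes had their highest ratio on the same array, that of 4 h. The share of all genes with their highest ratio there was not computed, so this is not read as a trait of the locus. The bases just before their start sites are shown beside those of Fcgr1 as a description. Each window is the 250 bases before the start in RefSeq on GRCm38.p6 (for Fcgr3, the first of 2 starts listed), written 5′ to 3′ on the gene's strand: Fcgr1 chr3:96293970-96294219 (minus), Fcgr2b chr1:170976072-170976321 (minus), Fcgr3 chr1:171059404-171059653 (minus) and Fcgr4 chr1:171018676-171018925 (plus). Capitals mark matches on either strand to 2 motifs, which did not overlap one another: GAGGAA, a core bound by PU.1, and the interferon-stimulated response element, by its usual pair of GAAA blocks with any 2 bases between.
Fcgr1: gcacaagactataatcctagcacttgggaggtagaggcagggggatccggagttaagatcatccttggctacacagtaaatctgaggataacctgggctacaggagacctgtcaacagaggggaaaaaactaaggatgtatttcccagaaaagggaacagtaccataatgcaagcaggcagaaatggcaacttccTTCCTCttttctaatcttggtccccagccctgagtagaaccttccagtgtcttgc
Fcgr2b: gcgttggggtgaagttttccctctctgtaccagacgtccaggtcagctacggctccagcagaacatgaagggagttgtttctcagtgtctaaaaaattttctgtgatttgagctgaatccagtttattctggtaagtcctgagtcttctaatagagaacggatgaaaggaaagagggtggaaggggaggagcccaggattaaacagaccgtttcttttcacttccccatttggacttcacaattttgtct
Fcgr3: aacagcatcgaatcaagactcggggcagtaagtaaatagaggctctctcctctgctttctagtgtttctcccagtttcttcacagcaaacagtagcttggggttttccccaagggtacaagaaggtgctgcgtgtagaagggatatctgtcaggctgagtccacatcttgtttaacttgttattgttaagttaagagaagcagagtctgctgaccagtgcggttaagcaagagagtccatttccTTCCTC
Fcgr4: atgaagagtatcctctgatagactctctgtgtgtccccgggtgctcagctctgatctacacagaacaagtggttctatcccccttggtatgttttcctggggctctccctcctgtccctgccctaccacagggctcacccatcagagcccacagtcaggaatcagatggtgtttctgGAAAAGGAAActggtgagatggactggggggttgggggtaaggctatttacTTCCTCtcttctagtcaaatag
The GAGGAA core, read as TTCCTC on the gene's strand, begins 55 bases before the start of Fcgr1, 6 before that of Fcgr3 and 22 before that of Fcgr4. The match to the response element begins 73 bases before the start of Fcgr4, and binding there was not tested. Among the genes not shown, the core was also in the windows of Marco, Mrc1 and Olr1, whose probes were not well above background. In the Fcgr2b and Fcer1g windows neither motif was found, which says only that these letters are not in them. Of 32851 windows of this length, 23.3% held the PU.1 core and 2.98% the response element, so the core is common. Whether the core is more frequent in the windows of the genes described here was not tested. For 8 of the 10 genes a window was in the table; Msr1 and Scarb1 had no entry.

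Fcgr1 encodes the high-affinity receptor for immunoglobulin G. Its probe gave Cy5 signals of 82.7, 75.8, 46.4 and 15.6 in untreated cells and after 1, 4 and 6 h, in that order, and Cy3 signals of 105, 114, 69.6 and 64.9. Cy5 was highest untreated and lowest at 6 h, where it was no longer well above background, and the reference was also lower on the later arrays. The log2 ratio was -0.18, -0.11, -0.23 and -0.58. The differences from untreated were 0.07 at 1 h and -0.05 at 4 h, both smaller than the spot SD. At 6 h only a bound can be given. Normalized Cy5 read 1.36-fold lower than in untreated cells (log2 means of 7.10 and 6.66), short of the rule. With such bounds counted, 1.02% of genes passed the rule. From 4 to 6 h the bound was 1.22-fold lower, where 0.462% of genes passed the rule with bounds counted. Both bounds use the 6 h spot's own reading and make no allowance for spot error. Cy5 alone, scaled to each array's 75th percentile, stood at -0.24 at 1 h and -0.81 at 4 h from untreated, and Cy3 alone at -0.01, -0.58 and -0.62 at 1, 4 and 6 h. At 6 h, from a spot not well above background, Cy5 alone read -2.33 and the difference of processed ratios -1.71, both beyond 1 in size. The bounds do not show that Fcgr1 at 6 h lies within the rule.

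Fcgr3 encodes a low-affinity activating receptor. Cy5 signals were 358, 396, 487 and 439 and Cy3 signals 311, 365, 279 and 309, in the same order. The 4 h array had the highest Cy5 and the lowest Cy3 value of the 4. The log2 ratio, at 0.21, 0.18, 0.54 and 0.41, was above 0 on all 4 arrays. The difference from untreated was -0.02 at 1 h, 0.33 at 4 h and 0.21 at 6 h. The value at 4 h was the largest of any measured member from untreated and exceeded the single-spot SD, yet 6.34% of all measured genes stood at least as high. At 4 h Cy5 alone stood at 0.47 and Cy3 alone at -0.14. From the processed signals the 4 h difference was 0.60.

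Fcgr4 encodes an activating receptor of intermediate affinity found in the mouse. Its Cy5 signals were 2170, 2388, 2603 and 2433 and its Cy3 signals 2294, 2634, 2404 and 2574. Untreated cells were lowest in both channels, and Cy5 was highest at 4 h. The ratio was -0.11, -0.06, 0.09 and -0.07, above 0 only on the 4 h array. The differences were 0.04, 0.20 and 0.04, so that at 4 h alone exceeded the spot SD, and 15.7% of all genes were at least as high there. At 6 h it ran from -0.11 to 0.24 over the alternatives that keep the cells' channel, so its sign there depends on the processing.

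Fcgr2b encodes the inhibitory receptor, and its 10 spots give the firmest measurement of the group. Spots marked as outliers by the scanner software, 3 on the untreated and 2 on the 1 h array, were left out. The lowest, median and highest Cy5 signals of the spots kept were 680, 718 and 835 untreated (7 spots), 768, 846 and 947 at 1 h (8 spots), 929, 990 and 1098 at 4 h (10 spots) and 692, 776 and 991 at 6 h (10 spots). Every spot kept at 4 h was brighter in Cy5 than every one kept on the untreated array, whereas the 6 h spots overlapped both. Mean Cy3 signals over these spots were 731, 847, 824 and 832, lowest on the untreated array.

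The log2 ratio of Fcgr2b had a median over spots of 0.02 untreated, 0.09 at 1 h, 0.27 at 4 h and -0.05 at 6 h. Spot ratios ran from -0.05 to 0.16 untreated, 0.03 to 0.23 at 1 h, 0.15 to 0.38 at 4 h and -0.13 to 0.04 at 6 h. The 4 h and 6 h ranges did not overlap, and those of 4 h and untreated overlapped by 1 spot on each side. Taken spot by spot, the difference from untreated was 0.10 ± 0.06 (SD, n = 5 spots) at 1 h, with 4 of 5 spots above 0. At 4 h it was 0.23 ± 0.04 (SD, n = 7 spots), above 0 in 7 of 7, and at 6 h -0.08 ± 0.07 (SD, n = 7 spots), below 0 in 6 of 7. From 4 to 6 h it was -0.33 ± 0.07 (SD, n = 10 spots), below 0 in 10 of 10. The spots of 1 array share 1 RNA pool, so these SDs are spot error and their number is not a number of cultures. Among all measured genes 7.72% stood at least as low from 4 to 6 h. Without the reference the picture at 6 h differed: Cy5 alone was 0.17 above untreated while Cy3 alone was 0.26 above.

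**Figure D2:**
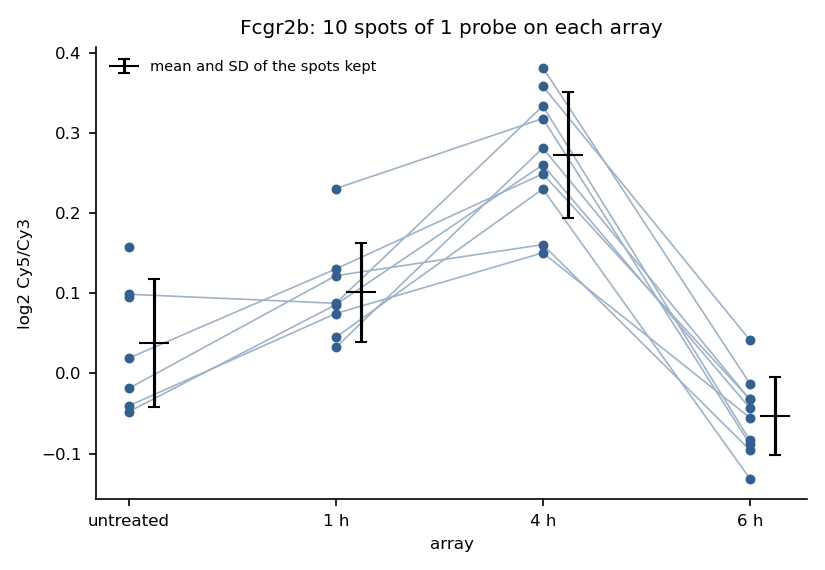
Log2 ratio of Cy5 over Cy3 for each of the 10 spots of the Fcgr2b probe on the 4 arrays; lines join the same spot position and break where a spot was left out as an outlier, and black bars give the mean and SD of the spots kept. All 10 spots are lower at 6 h than at 4 h, and the 4 h spots run from 0.15 to 0.38.

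Set side by side, the inhibitory receptor and its neighbours Fcgr3 and Fcgr4 had differences of 0.23, 0.33 and 0.20 from untreated at 4 h and of -0.33, -0.12 and -0.16 from 4 to 6 h. None of these values passed the rule. Over the same alternatives the 4 h values ran from 0.23 to 0.47, 0.33 to 0.60 and 0.19 to 0.29, and those from 4 to 6 h from -0.50 to -0.30, -0.30 to -0.10 and -0.31 to -0.05. Several alternatives, such as the choice of probe, cannot alter a gene with 1 probe. The differences from 1 to 4 h were 0.17, 0.35 and 0.15, and turned below 0 under median centring, where the median of all genes itself stood at -0.83. The balance of activating and inhibitory transcripts cannot be read from these levels, since each probe has its own brightness. RNA was measured in bulk, so fewer cells with a transcript and less of it per cell cannot be told apart.

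Fcer1g, the shared gamma chain, was a bright transcript, with Cy5 signals of 71592, 70557, 60813 and 52467 and Cy3 signals of 61872, 73511, 59092 and 70387 over the same 4 arrays. Cy5 was highest in untreated cells and lowest at 6 h, by a factor of 1.36. Its only spot was marked as non-uniform in Cy5 on all 3 treated arrays and therefore gave no difference under the settings used. With such spots kept, the difference from untreated was -0.30 at 1 h, 0.02 at 4 h and -0.43 at 6 h, short of the rule at each time. The ratios behind these values, 0.30, 0.00, 0.32 and -0.13, have no order in time.

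**Figure D3:**
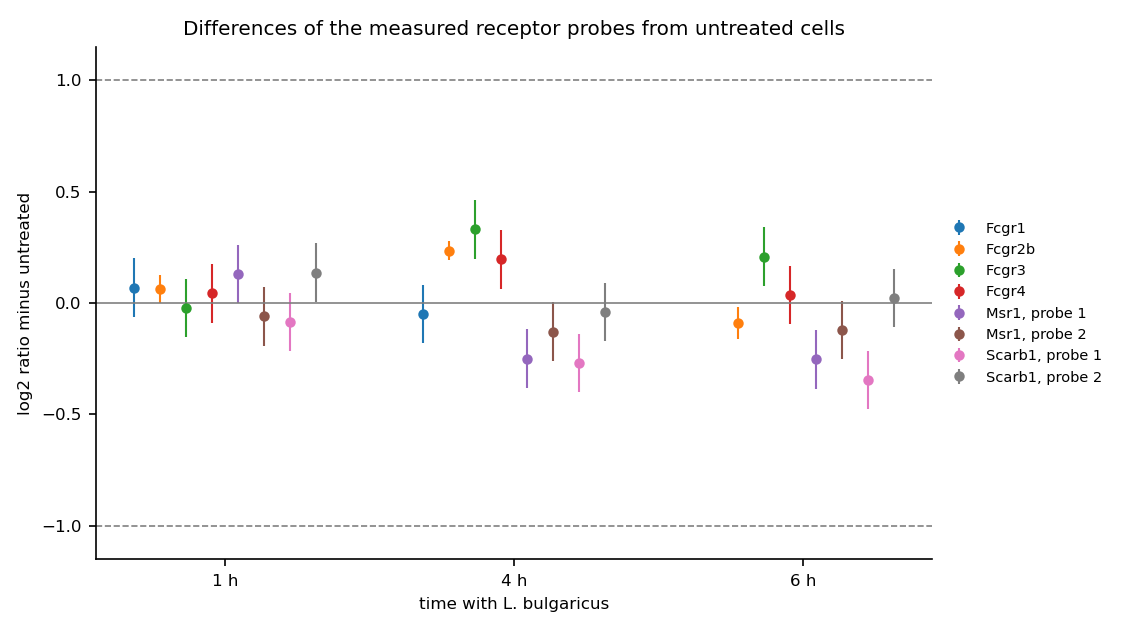
Log2 difference of the Cy5 over Cy3 ratio from the untreated array at 1, 4 and 6 h for each measured receptor probe, with 1 array per group; bars show 1 SD of a single-spot difference (0.13), or for Fcgr2b the SD over its own spots, and dashed lines mark the rule of size (1 and -1). The probes lie between -0.35 (Scarb1, at 6 h) and 0.33 (Fcgr3, at 4 h), all inside the rule.

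Among the scavenger receptors, Msr1 encodes the class A receptor first known for uptake of modified low-density lipoprotein. Its brighter probe (A_52_P127130) had Cy5 signals of 3892, 4264, 3221 and 3328 and Cy3 signals of 2592, 2706, 2622 and 2581. Its other probe (A_52_P607128) had Cy5 signals of 837, 1008, 952 and 912 and Cy3 signals of 734, 1110, 968 and 911. Both probes were brightest in Cy5 at 1 h, but the first was lower at 4 and 6 h than in untreated cells and the second was higher. In ratios they came closer: the differences from untreated were 0.13, -0.25 and -0.25 for the first and -0.06, -0.13 and -0.12 for the second, below 0 for both at 4 and 6 h. The gene mean was 0.04, -0.19 and -0.19. The 4 and 6 h values exceeded the single-spot SD; 15.5% and 24.5% of all genes were at least as low. Cy5 alone averaged -0.02 at 4 h and 0.03 at 6 h, and Cy3 alone averaged 0.22 and 0.23, so averaged over both probes the lower ratio came with a brighter reference, while the first probe was also dimmer in Cy5.

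Scarb1 encodes the receptor for high-density lipoprotein, which also binds bacterial lipids. Cy5 signals were 997, 1036, 764 and 660 for its probe A_55_P1954021, with Cy3 signals of 823, 1018, 816 and 706. For A_55_P2088965 they were 1139, 1174, 1073 and 1160 in Cy5 and 757, 755, 770 and 779 in Cy3. The first probe was lower in Cy5 at 4 and 6 h, whereas the second varied by a factor of 1.09 over the 4 arrays. Their differences from untreated were -0.09, -0.27 and -0.35 for the first and 0.14, -0.04 and 0.02 for the second. The probes thus disagreed in sign at 1 and 6 h, with a gap of 0.37 at 6 h, and the gene means of 0.03, -0.15 and -0.16 stand for neither. Both probes carry the same RefSeq accession in the files, and why they differ was not tested.

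Marco, Mrc1 and Olr1 were not well above background in either channel on any array, so no difference is given. Marco encodes a class A receptor with a collagen-like stalk, Mrc1 the macrophage mannose receptor and Olr1 a lectin-like receptor for oxidized low-density lipoprotein. Cy5 signals of the Marco probe were 14.6, 16.4, 10.7 and 10.2. Those of the Mrc1 probe ranged from 4.01 to 5.00, and those of the Olr1 probe from 4.50 to 4.99. In the reference Olr1 read 4.66 to 5.71 on the first 3 arrays and 16.1 on the 6 h array, still not well above background. For these 3 genes the arrays show only that any transcript lay below what the probes could measure, with or without bacteria.

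Genes nearest to Fcgr3, the member with the widest range of gene-level ratios (0.35) among the 5 measured on all 4 arrays, were looked for over the 3 differences from untreated among 9798 named genes measured on all 4 arrays. Mdfic was the nearest, with differences of 0.01, 0.33 and 0.23 (distance 0.03). Nlrc4 followed, an inflammasome component, with -0.02, 0.30 and 0.18 (distance 0.04), and then the integrin gene Itgb7, with -0.01, 0.36 and 0.15 (distance 0.06). With 3 values per gene such likeness is a description only.

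The signalling genes that act behind these receptors were also within the rule. Of 29 listed genes of activating and inhibitory signalling, 23, 24 and 24 were measured at 1, 4 and 6 h, and 0 were past the rule in either direction. Their medians were 0.04, 0.08 and -0.03. Syk, the kinase that binds the phosphorylated gamma chain, stood at 0.22, 0.58 and 0.45, with Cy5 alone at -0.22, 0.21 and 0.05. Its Cy5 signals of 711, 659, 808 and 696 varied less than its Cy3 signals of 995, 911, 699 and 682, which were lower at the later times. Dok1, an adaptor that dampens signalling, stood at 0.22, 0.49 and 0.52 with Cy5 signals of 2335, 2702, 3504 and 3886. The adaptor genes Lat2 and Blnk had their largest values at 4 h (0.49, with Cy5 alone at 0.20) and 6 h (0.43, with Cy5 alone at 0.68).

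Downstream steps of uptake were measured for most listed genes. Of 18 genes of the phagocytic cup and actin, 15 were measured at each time with medians of 0.01, 0.11 and 0.10, and 0 were past the rule. The myosin gene Myo1f had the largest value, 0.59 at 4 h, which ran from 0.15 to 0.73 over the alternatives, with Cy5 alone at 0.27 and Cy3 alone at -0.48. Cdc42 (0.32) and Rhog (0.31), small GTPases, had theirs at 6 h, and Pip5k1a, a lipid kinase, stood at 0.26 at 4 h (0.05 to 0.45 over the alternatives). The 4 NADPH oxidase subunits reported, parts of the enzyme that makes superoxide in phagosomes, were all measured and 0 were past the rule. Ncf1 was the farthest from untreated, at -0.36 at 4 h, followed by Cybb (-0.13 at 4 h), Cyba (0.12 at 1 h) and Ncf4 (0.09 at 4 h).

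Of 19 other scavenger receptors reported, 7, 8 and 7 were measured at 1, 4 and 6 h, and 0 of them were past the rule. Lrp1, a large endocytic receptor, stood at 0.12, 0.35 and 0.14 with Cy5 signals of 8439, 10302, 12427 and 11652. Cd36, a fatty acid and lipoprotein receptor, stood at -0.16, -0.33 and -0.25. Its Cy5 signals of 661, 737, 683 and 704 were lowest in untreated cells, as were its Cy3 signals of 654, 904, 898 and 832. Scarb2, a lysosomal relative of Scarb1, stood at -0.26 at 6 h. Cxcl16, a membrane-bound chemokine that binds oxidized lipoprotein, stood at -0.23 at 6 h, with Cy5 alone at 0.44 and Cy3 alone at 0.54. The list's medians were 0.07, 0.01 and -0.11.

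Of 20 C-type lectins and mannose receptor relatives, 5, 6 and 6 were measured and 0 were past the rule, with medians of -0.09, 0.00 and -0.09. Clec4e, a receptor for glycolipids that signals through the same gamma chain, stood at 0.15, 0.44 and 0.77, with Cy5 signals of 3796, 4711, 5596 and 5183. Its Cy3 signals were 4761, 5361, 4848 and 3570, lowest at 6 h, where Cy5 alone stood at 0.53 and Cy3 alone at -0.34. Clec4d, its relative, remained between -0.21 and -0.05. Mgl2, a galactose-binding lectin, stood at -0.80, -0.71 and -0.88, but its Cy5 signals of 22760, 28698, 28352 and 27134 were higher with bacteria. Its Cy3 signal was 14028 on the untreated array and 29153 to 31036 on the others, so the low ratio came with a dim reference spot on the untreated array. Clec10a, a related lectin, stood at -0.09, -0.04 and -0.21, while Cy5 alone was at 0.61, 0.74 and 0.53 and Cy3 alone at 0.56, 0.78 and 0.83.

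Other receptors of uptake were measured for 13 of 18 listed genes with medians of 0.09, 0.08 and 0.02, and 0 were past the rule. Gas6, a bridging ligand between phosphatidylserine and the Axl family, stood at 0.39, 0.34 and 0.97, just inside it, and from 0.89 to 2.10 at 6 h over the alternatives. Its Cy5 signals were 85.7, 155, 172 and 205, and its Cy3 signals 190, 179, 200 and 106. Sirpa, an inhibitory receptor for Cd47, stood at 0.53 at 4 h, with Cy5 alone at 0.72. The integrin Itgav stood at 0.38 at 4 h, but Cy5 alone was at -0.09 and Cy3 alone at -0.61. Axl stood at 0.28 at 4 h, with Cy5 alone at 0.19 and Cy3 alone at -0.52, and ran from 0.19 to 0.70 over the alternatives.

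Regulators of macrophage receptor genes were measured for 11 of 14 genes reported, 0 of them past the rule, with medians of 0.10, 0.09 and 0.16. Cebpa, a myeloid transcription factor, stood at 0.28, 0.61 and 0.46 with Cy5 signals of 697, 1047, 1185 and 1162. Cebpb stood at 0.10, 0.44 and 0.46. Nfe2l2, a regulator of antioxidant genes, was at 0.39 at 4 h and -0.24 at 6 h. Its Cy5 signals were 1839, 2889, 3868 and 1760, highest at 4 h. Irf8, a myeloid interferon regulatory factor, was at -0.43 at 4 h.

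**Figure D4:**
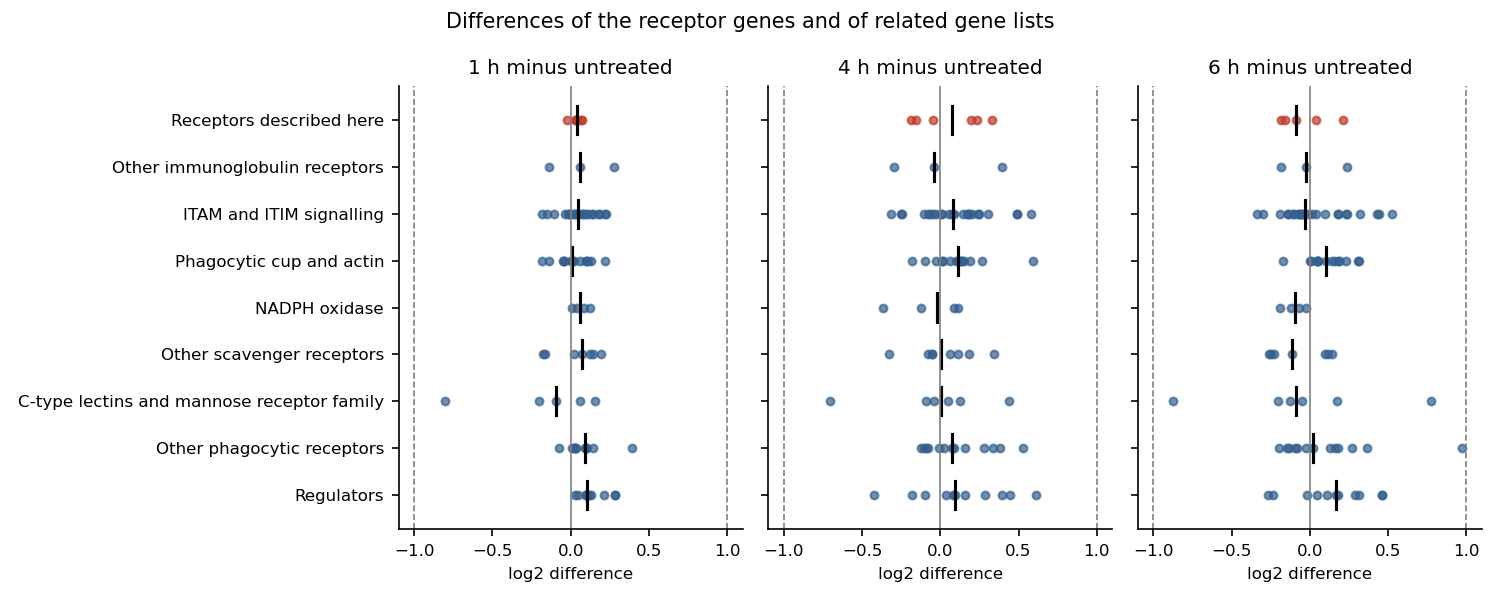
Log2 difference from the untreated array at 1, 4 and 6 h for the measured genes of each receptor, signalling and uptake list, with the median of the list as a bar and dashed lines at 1 and -1. None of the genes drawn lies past the rule; the nearest to it is Gas6, at 0.97 at 6 h.

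**Figure D5:**
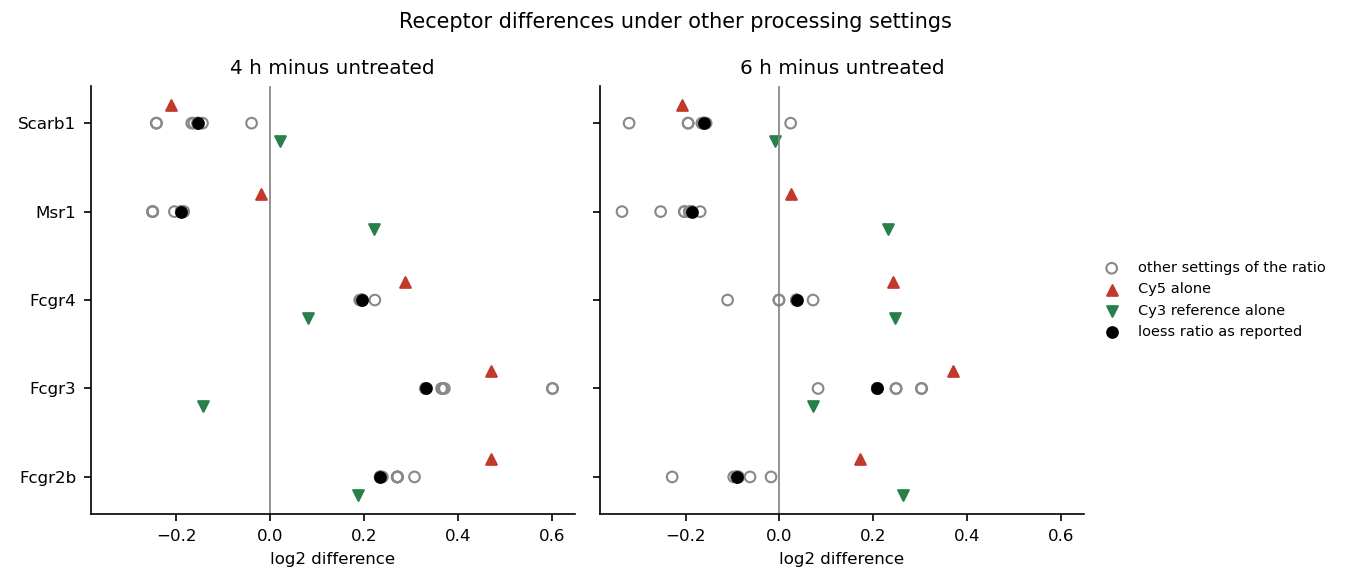
Log2 difference from untreated of 5 receptor genes at 4 h and 6 h as reported (filled circles), under other settings of the ratio (open circles) and in Cy5 or Cy3 alone (triangles). At 4 h Fcgr2b, Fcgr3 and Fcgr4 lie above 0 and Msr1 and Scarb1 below 0 in every ratio setting drawn; the Cy3 reference of Fcgr3 lies below 0 and that of Msr1 above 0.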

How the data were processed

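Per the submitters' processing notes, the scanner images were quantified in Agilent Feature Extraction 10.5.1.1. The deposited files give per spot the median intensity of spot and background, processed intensities, background-subtracted and dye-normalized by that software, and the log10 of processed Cy5 over Cy3; the deposited series table holds the same log10 ratio (equal within 0.005 for 100% of values on each array). Dye roles are per the labels. Further steps are not given in the sources used here.

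For the median intensities, limma 3.58.1 (R 4.3.3) gave a normexp background correction (offset 50) and a loess fit within arrays that ignored control and outlier spots; outlier spots (1.55% to 1.84%) were left out. Spots, then probes of a gene, were averaged, and log2 ratios subtracted between arrays. Bounds used Cy5 after Aquantile normalization, on the offset scale. Accessions were turned into symbols with RefSeq's genes of GRCm38.p6, which covered 27655 of 39429 probes; the array's own annotation is of another build. Promoter windows are RefSeq's of GRCm38.p6.

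The members, gene lists, the rule of a log2 difference of 1 and 12 alternatives were chosen with earlier results of these data known, and 2 alternatives after seeing the data. Named were all members, up to 4 measured genes per list with the largest difference from untreated, genes past the rule and the 3 genes nearest to 1 member. Some listed genes are not reported here and were left out of the list counts. The steps were tested on simulated data with planted changes beyond the rule of size, which says nothing of smaller differences or of dim spots. Plots were made with Python 3.11.15 and matplotlib 3.10.9.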

Additional observations from a re-analysis of the deposited data

How the results depend on the processing

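The count of receptor genes past the rule of size was 0 in all 5 comparisons under each alternative run, planned or added, with 1 exception: 2 genes passed from 1 to 4 h under median centring in place of loess (Msr1 at -1.13 and Scarb1 at -1.02), where the median of all genes stood at -0.83. At 1 h that setting put the median of all genes at 0.86, against 0.06 as reported, so single values there were not read. The number of all genes past the rule at 1, 4 and 6 h was 39, 47 and 95 as reported. It was 159, 243 and 424 from the processed signals, 88, 110 and 241 with background subtracted, 252, 494 and 970 in Cy5 alone and 3030, 53 and 151 under median centring. At 1 h the genes higher and lower numbered 34 and 5 as reported, 117 and 42 from the processed signals and 127 and 125 in Cy5 alone. Over the alternatives based on ratios the 4 h difference ran from 0.33 to 0.60 for Fcgr3, 0.23 to 0.31 for Fcgr2b, 0.19 to 0.22 for Fcgr4, -0.25 to -0.18 for Msr1 and -0.24 to -0.04 for Scarb1. Cy5 alone kept these signs, but for Msr1 it was only -0.02, a mean of probes at 0.21 and -0.25. At 1 h the sign of each of the 6 measured members turned under at least 1 alternative. Aquantile normalization, the filters on dim probes and the choice of probe leave the ratio of a gene with 1 probe as it was, and the deposited ratio repeats the processed signals, so such settings add nothing to its stability. No paired analysis was possible because each group had 1 array and the labels give no replicate numbers. Signal over background limits Fcgr1 at 6 h and Marco, Mrc1 and Olr1 throughout; the mean ratio of Cy5 signal to background was 49.9, 45.2, 39.7 and 34.8 in untreated cells and after 1, 4 and 6 h.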

Other observations

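Other immunoglobulin receptors were outside the comparisons above. Of 13 listed, 3 were measured at each time and 0 were past the rule. Fcgrt, the neonatal Fc receptor that recycles immunoglobulin G, had Cy5 signals of 408, 450, 410 and 422 in untreated cells and after 1, 4 and 6 h and differences of 0.06, -0.04 and -0.02, the flattest of the 3. Pigr, the epithelial receptor that carries immunoglobulin A, had Cy5 signals of 655, 712, 609 and 371 and Cy3 signals of 657, 671, 595 and 455, so both channels were lowest at 6 h. Its ratio differences were 0.27, 0.39 and 0.24, with Cy5 alone at 0.03, 0.21 and -0.25. Fcrl5, known from the B cell surface, had Cy5 signals of 778, 942, 807 and 899 and differences of -0.14, -0.29 and -0.18, with Cy5 alone at 0.16, 0.08 and 0.28 and Cy3 alone at 0.42, 0.45 and 0.52.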
